A study of Mus musculus with 10 samples.

Results

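The response of the ERdj5-knockout (KO) colon to dextran sulfate sodium (DSS) was examined across all genes by RNA sequencing. Of the 10 libraries with read counts in the series, 5 were of KO mice and were chosen by the genotype in their column names: 3 of DSS-treated mice (libraries 1, 2 and 4) and 2 of untreated mice (libraries 2 and 3). Both KO groups share the ERdj5 deletion. The mice were 8-week-old females, the treated ones were given 2% DSS in their drinking water, and the labels place every colon sample at day 5. The other 5 libraries, 2 untreated and 3 DSS-treated, were of WT C57BL/6 mice and served here to show where the KO response differed. The WT mice were bought from a commercial supplier and the KO line came from a repository. No source used here says that the genotypes were littermates, or which mouse gave which library. The spread of libraries within a group may therefore be technical. Each p-value reflects that spread as estimated over all groups together, so the WT libraries also enter the p-values of the KO response. The library numbers are names from the deposited table and pair no samples. Colon tissue was homogenised whole, and in such bulk samples fewer cells of a type and less RNA per cell cannot be told apart.

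DSS is a sulfated polysaccharide that injures the epithelium lining the colon. Bacteria of the lumen then reach the tissue beneath, neutrophils and monocytes enter, and surviving crypt cells divide to close the wound. ERdj5, encoded by Dnajc10, is a disulfide reductase of the endoplasmic reticulum (ER) that works with the chaperone BiP to clear misfolded proteins. The ER carries a heavy folding load in secretory cells such as the mucin-making goblet cells of the colon.

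Levels are given as CPM, read counts scaled to a common effective library total, always in the order untreated KO 2 and 3, then DSS-treated KO 1, 2 and 4. Changes are log2 fold changes of DSS-treated against untreated KO colon with their standard errors (SE), from edgeR's quasi-likelihood test, and a gene was called at a Benjamini-Hochberg adjusted p under 0.05 over all genes tested. CPM are not corrected for gene length, so a level is compared only with the same gene in other libraries. Where KO groups are said not to overlap, this describes only the genes named. With so few libraries such separation is no test, and its share over all genes is not given. Where a gene had no count in either untreated KO library, the fold change is a lower bound against a floor of 3 counts over that group, which covers counting error only.

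Close to every second tested gene was called between DSS-treated and untreated KO colon when all libraries were fitted together. Fewer were called in a fit of the KO libraries alone, 3171 higher and 3789 lower of 19684 tested. In the joint fit 20472 of 29320 genes in the table were tested. Of these, 4730 (23.1%) were higher and 4570 (22.3%) lower with DSS. At least 2-fold changes were found for 1758 genes that were higher and 3181 that were lower, and at least 4-fold changes for 616 and 1530. The median log2 fold change of all tested genes was 0.02 and the median size was 0.62. In the WT colon the median size was 0.18, and 4 genes (0.0195%) were higher and 1 (0.00488%) was lower, with 1435 genes at an unadjusted p under 0.05; DESeq2 called 114 and 59 WT genes. The response differed between the genotypes, by the test of the difference itself, for 2830 genes with a higher response in KO (13.8%) and 2652 with a lower one (13%). Without untreated KO library 2 the higher genes in KO numbered 3124, and without untreated KO library 3 they numbered 2822 and the lower genes 2801. The difference of the responses was called for 1760 and 1448 genes without untreated WT library 2, 1477 and 1347 without untreated WT library 3, 1650 and 1680 without untreated KO library 2, and 1481 and 1430 without untreated KO library 3.

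The WT libraries lay inside the range of the KO response for many of these genes. For 2750 of the 9300 genes called in KO (29.6%), all 5 WT libraries fell between the untreated and the DSS-treated KO libraries, and for 7390 the mean of untreated WT lay between the KO means. The KO libraries held 49689389 to 66844376 counts. When libraries were scaled to 6 epithelial marker genes, a choice made after the data were seen, the median of all genes moved to -0.20 and the called genes in KO were 2452 higher and 5483 lower. The mean level of those markers was 9.28 and 9.30 in untreated KO and 9.30, 9.59 and 9.67 in DSS-treated KO on the log2 CPM scale.

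**Figure D1:**
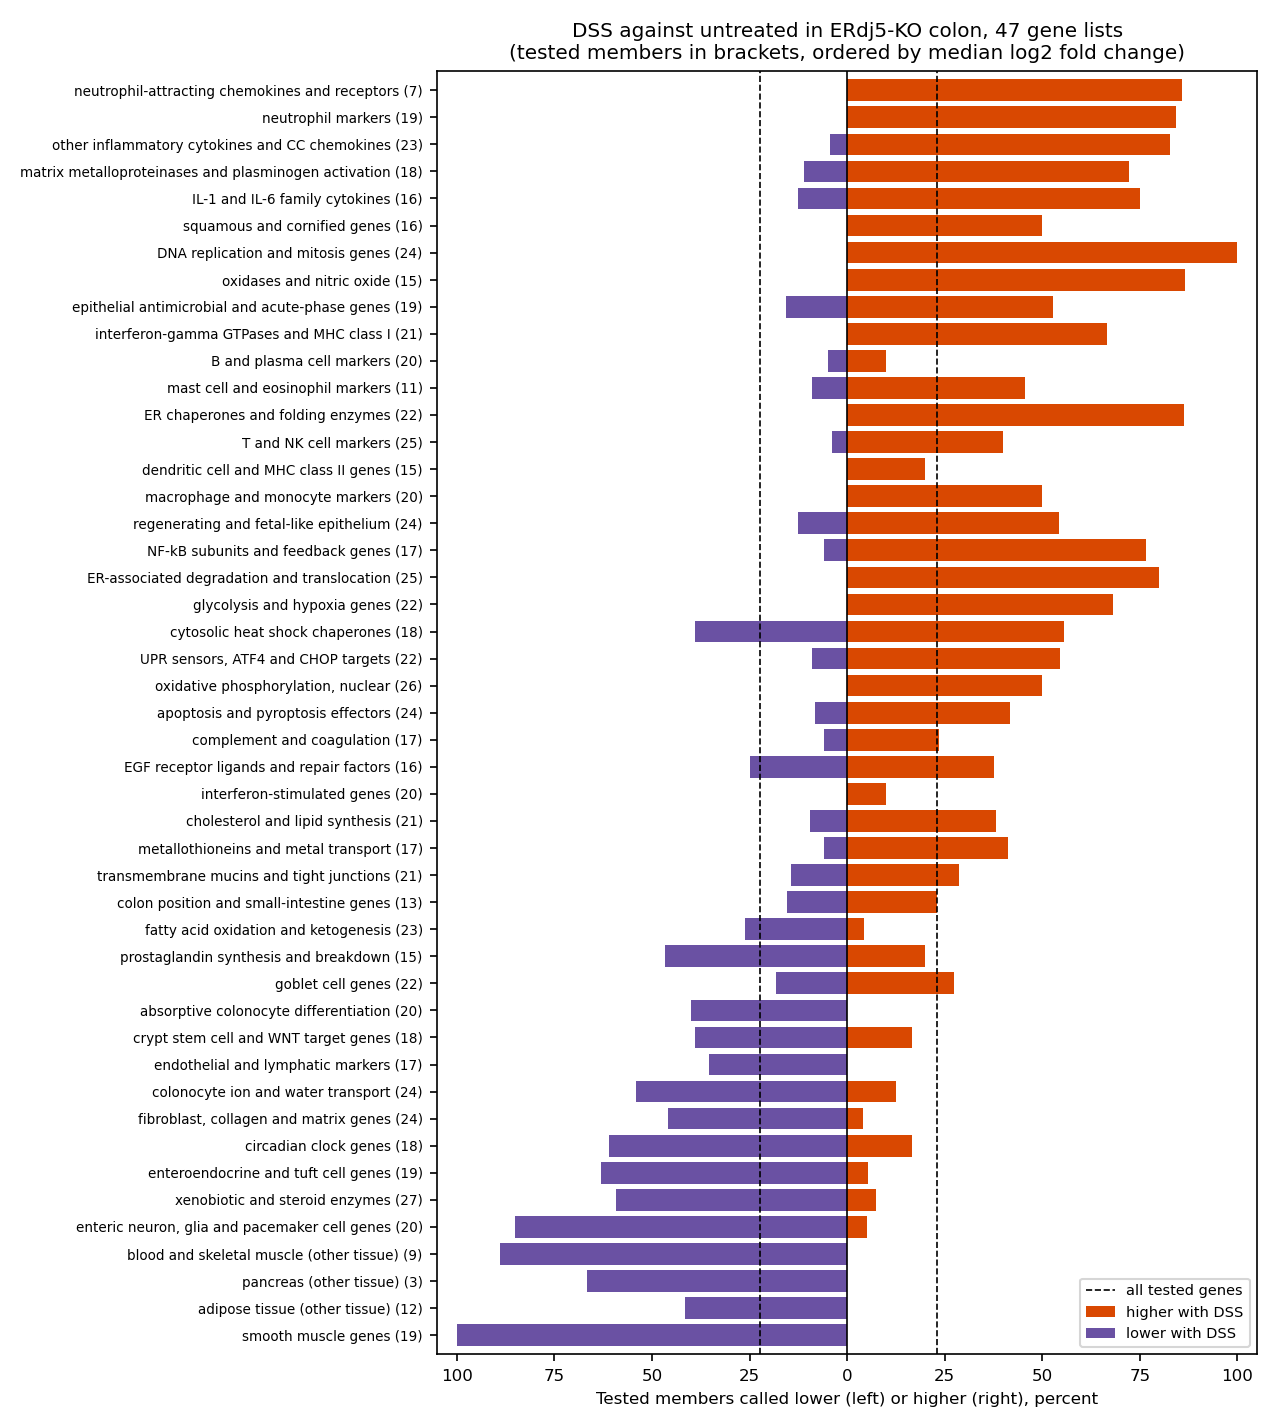
Share of tested members called lower (left) or higher (right) with DSS in KO colon, in percent, for 47 gene lists ordered by their median log2 fold change; dashed lines mark the shares over all genes, 22.3% lower and 23.1% higher. The mitosis list reaches the full share on the right and the smooth muscle list on the left.

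The targeted gene was checked first. Dnajc10 was at 18.4 and 20.03 CPM in untreated KO and 25.6, 23.9 and 30.4 CPM in DSS-treated KO, against 113 and 132 CPM in untreated WT and 139.7, 138 and 121 CPM in DSS-treated WT. Every KO library was below every WT library, as its label says. The residual signal was higher with DSS (log2 fold change 0.47, SE 0.13, adjusted p = 0.0158), but not without untreated KO library 2 (adjusted p = 0.11) or 3 (adjusted p = 0.0554), in a fit of the KO libraries alone or with epithelial marker scaling (adjusted p = 0.191).

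Secreted inflammatory proteins were prominent among the largest rises, and 6 of the 12 genes were silent in both untreated KO libraries. S100a8 (gene ID 20201, chromosome 3, bases 90669071 to 90670034 in GRCm38.p6) encodes a subunit of the calcium-binding neutrophil protein calprotectin and went from no count to 185, 27.4 and 44.02 CPM, at least 3437-fold higher. Its partner S100a9 was at 0 and 0.0572 CPM before and 220.2, 30.96 and 43.2 CPM after DSS (log2 fold change 11.45, SE 1.47, adjusted p = 0.000352). In both genes DSS-treated KO library 1 was the highest and no untreated library came near. Retnlg and Chil3, whose proteins are secreted by myeloid cells, were also highest in library 1, with 43.2, 5.81 and 4.08 CPM of Retnlg and 21.3, 5.84 and 2.12 CPM of Chil3 after DSS. Retnlg was at least 711-fold higher, and Chil3 rose by 9.01 on the log2 scale from 0.0395 and 0 CPM. That untreated level of Chil3 was under the floor of 3 counts, so the size of its rise is imprecise. Saa3, an acute-phase serum amyloid protein, rose from 0.119 and 0.458 to 415, 99.05 and 33.1 CPM (log2 fold change 9.20, SE 1.36, adjusted p = 0.000703).

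Other large rises were more even across the 3 treated libraries. Plet1, which encodes a lipid-anchored surface protein, was at 1.44 and 0.801 CPM in untreated KO and 506, 444 and 713 CPM with DSS (log2 fold change 8.97, SE 0.88, adjusted p = 0.000112). Lrg1, a secreted leucine-rich glycoprotein of the acute phase, was at 0.83 and 1.29 CPM before and 559, 301 and 697 CPM after DSS (log2 fold change 8.91, SE 0.87, adjusted p = 0.000112). Library 2 was the lowest of the 3 treated libraries for both genes, and all 3 were far above the untreated ones. DSS-treated WT colon reached 73.05, 22.6 and 14.9 CPM of Plet1 and 72.9, 14.1 and 53.6 CPM of Lrg1, and the difference of the responses was called for both, at 4.50 and 4.64 on the log2 scale. The protease inhibitor gene Spink6 (8.29, 7.15 and 8.94 CPM), the serine protease gene Prss22 (42.3, 18.9 and 13.9 CPM) and Myot, which encodes the muscle Z-disc protein myotilin (11.3, 5.24 and 12.3 CPM), had no count in untreated KO. They were at least 326-fold, 1005-fold and 386-fold higher.

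**Figure D2:**
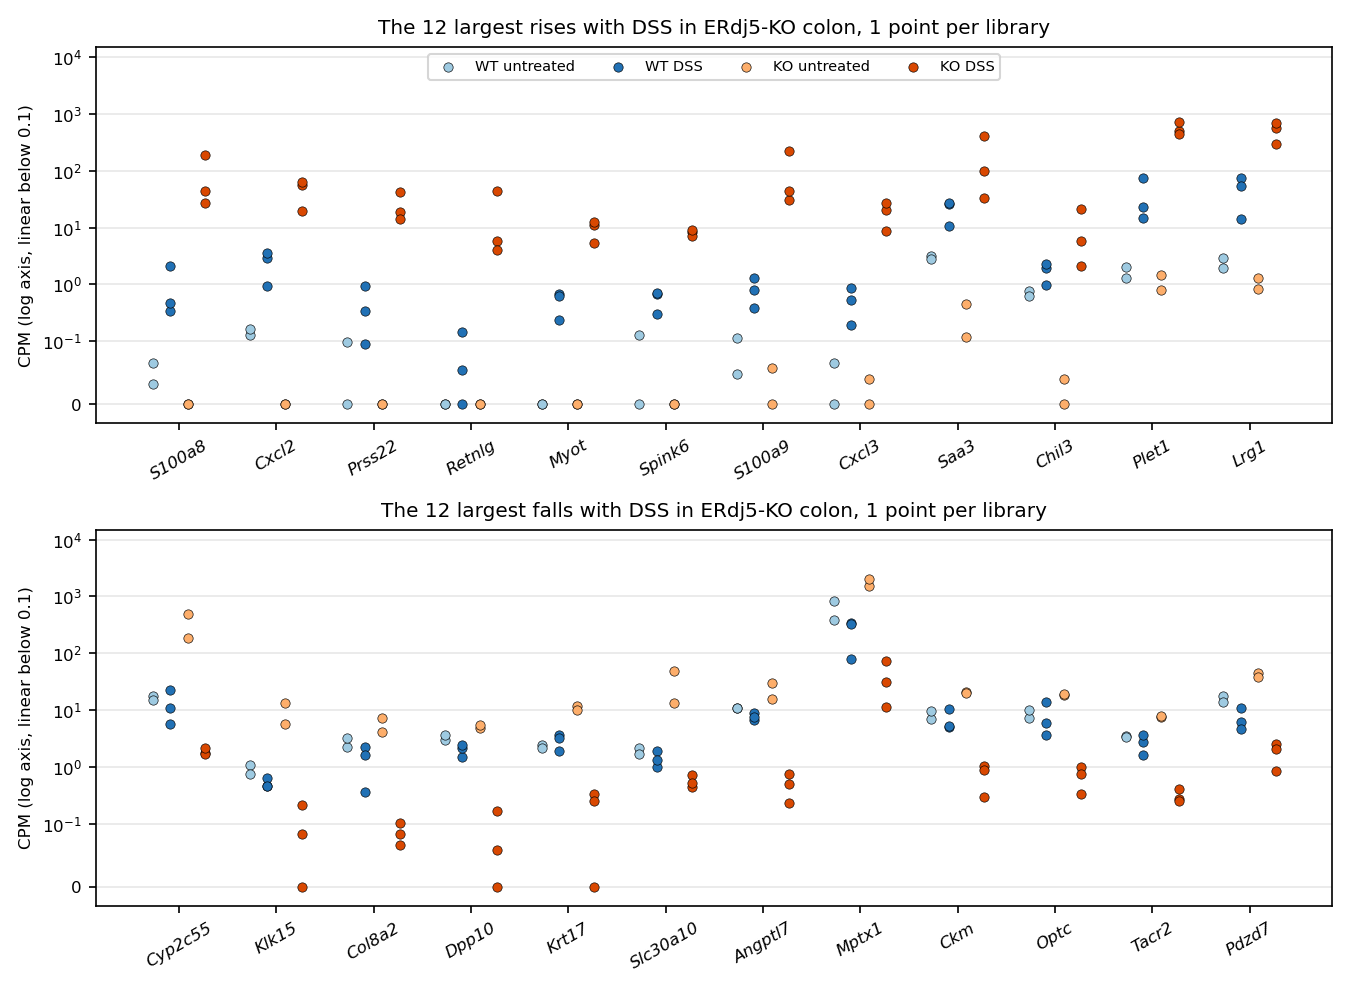
Level of the 12 genes with the largest rises (top) and the 12 with the largest falls (bottom) in KO colon, in CPM on an axis that is logarithmic above 0.1 and linear below, with 1 point per library in each of the 4 groups. The genes were chosen for large changes without overlap, so the separation of DSS-treated from untreated KO points follows from the choice. For 16 of the 24 genes all WT points lie between the KO groups, Cyp2c55 among them at 17.8 and 15.1 CPM in untreated WT. Only genes without overlap of the KO groups can show this, and a large change gives more room for it. The 29.6% of all genes called in KO also covers genes with overlap, so it is no like share.

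The largest falls were of a different kind. Cyp2c55 (gene ID 72082, chromosome 19, bases 39006940 to 39042690), which encodes a cytochrome P450 expressed in the colon, dropped from 183 and 489.6 CPM to 1.79, 1.66 and 2.12 CPM (log2 fold change -7.51, SE 0.63, adjusted p = 6.91e-05). All 3 treated libraries were low and alike, while the untreated WT libraries held 17.8 and 15.1 CPM, between the KO groups. The zinc and manganese exporter gene Slc30a10 fell from 13.1 and 48.5 to 0.45, 0.72 and 0.526 CPM, and the keratin gene Krt17 from 11.9 and 9.91 to 0, 0.335 and 0.252 CPM. Klk15, a kallikrein protease, was at 13.3 and 5.71 CPM before and 0, 0.0837 and 0.21 CPM after DSS. Mptx1, a pentraxin of the gut epithelium, fell by 5.53 on the log2 scale, from 1532 and 2019.7 to 11.2, 31.1 and 73.3 CPM.

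Several of the remainder are known from muscle, nerve or matrix. The tachykinin receptor gene Tacr2 fell from 7.59 and 7.90 to 0.276, 0.402 and 0.252 CPM, and the muscle creatine kinase gene Ckm from 20.8 and 19.8 to 0.29, 1.02 and 0.883 CPM. The collagen gene Col8a2, the potassium channel partner Dpp10, Angptl7, the matrix protein gene Optc and Pdzd7 fell by 6.05, 5.98, 5.55, 4.79 and 4.56 on the log2 scale. For all 12 genes the difference of the responses was called, with a lower response in KO. The genes were chosen by their fall in KO, which is part of that difference, so this follows largely from the choice.

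Neutrophil-attracting chemokines rose most of the 47 gene lists that were described. Of 7 tested genes, 6 were higher and 0 lower, with a median log2 fold change of 7.66, or 7.32 with genes that were silent in untreated KO set at their bound, beside 0.02 over all genes. The chemokines of this list bind CXCR2, the receptor that guides neutrophils out of the blood. Cxcl1 was at 0.119 and 0.172 CPM in untreated KO and 15.3, 8.94 and 47.6 CPM with DSS. Cxcl5 went from 1.86 and 1.12 to 331, 125 and 437 CPM (log2 fold change 7.66, SE 0.69, adjusted p = 7.98e-05). Cxcl2 had no count in untreated KO and 56.3, 19.8 and 64.5 CPM with DSS, at least 1883-fold higher. Cxcl3 was at 0.0395 and 0 CPM before and 20.5, 8.69 and 26.7 CPM after (log2 fold change 9.95, SE 1.16, adjusted p = 0.000225). Its untreated level was under the floor of 3 counts, so the size of this fold change is imprecise. DSS-treated library 2 was the lowest of the 3 for each of these chemokines and was still far above both untreated libraries. In DSS-treated WT colon Cxcl5 was at 8.25, 4.13 and 8.01 CPM and Cxcl2 at 2.92, 0.932 and 3.52 CPM, and the response was called as higher in KO for 5 of the 7 genes, or 3 without untreated WT library 2 or 3.

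The regions just before these 3 neighbouring CXC genes are shown because each holds the same stretch of letters, which matches the site of NF-kB on both strands. NF-kB is a transcription factor of inflammation that binds a short sequence known as the kappaB consensus. The 250 bases before the transcription start, from RefSeq on GRCm38.p6, all on the plus strand, lie at chr5:90890995-90891244 for Cxcl1, chr5:90903649-90903898 for Cxcl2 and chr5:90785851-90786100 for Cxcl3, with matches to the kappaB consensus in capitals.
Cxcl1: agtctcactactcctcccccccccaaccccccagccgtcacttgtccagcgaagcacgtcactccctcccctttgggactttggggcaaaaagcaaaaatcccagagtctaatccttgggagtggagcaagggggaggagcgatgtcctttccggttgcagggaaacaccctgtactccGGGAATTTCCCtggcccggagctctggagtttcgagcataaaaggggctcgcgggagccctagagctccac
Cxcl2: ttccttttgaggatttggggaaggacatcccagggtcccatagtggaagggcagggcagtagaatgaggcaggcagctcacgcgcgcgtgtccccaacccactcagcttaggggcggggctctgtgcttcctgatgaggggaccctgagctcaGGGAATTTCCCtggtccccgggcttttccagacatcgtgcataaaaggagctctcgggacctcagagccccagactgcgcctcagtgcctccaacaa
Cxcl3: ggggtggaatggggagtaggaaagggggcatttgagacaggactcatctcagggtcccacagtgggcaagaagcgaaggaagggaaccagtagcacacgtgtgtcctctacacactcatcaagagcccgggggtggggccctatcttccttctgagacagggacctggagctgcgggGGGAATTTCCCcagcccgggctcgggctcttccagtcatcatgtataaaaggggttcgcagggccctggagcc
Both strands were searched, and the stretch holds 2 overlapping matches, 1 on each strand, whose first bases lie 71 and 70 bases before the start of Cxcl1, 97 and 96 before Cxcl2 and 73 and 72 before Cxcl3. The consensus occurred in 3.9% of 32851 windows of the same length over all genes. Counted by gene, in any of its windows, it occurred in 3 of the 7 chemokine list genes with a window. In the NF-kB list it occurred in 8 of 14 such genes. Of those 8 genes, Ier3, Nfkb2, Nfkbia, Nfkbie, Rel, Sod2 and Tnfaip3 rose and Tnip1 fell. A match is a description of letters and shows no binding.

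Neutrophil markers rose as a group, with 16 of 19 tested genes higher, 0 lower and a median log2 fold change of 6.40. The antimicrobial iron binder Ltf, a granule protein, went from 0.316 and 0.286 to 47.5, 16.4 and 31.00 CPM. The granulocyte growth factor receptor gene Csf3r rose from 0.91 and 0.415 to 13.1, 7.38 and 5.93 CPM (log2 fold change 3.75, SE 0.51, adjusted p = 0.000485), and Clec4e, a receptor for fungal and mycobacterial glycolipids, from 0.0791 and 0 to 19.7, 5.16 and 4.59 CPM. DSS-treated library 1 was the highest for each of these, and the untreated libraries did not overlap the treated ones. Ly6g, the surface marker by which mouse neutrophils are usually counted, was at 349.6 and 316 CPM before and 379, 284 and 388 CPM after DSS, and its log2 fold change of 0.08 was not called (adjusted p = 0.764). Ly6g counts alone made up nearly the whole summed level of the list in untreated KO (318 to 352 CPM, against 400.0 to 1035 CPM with DSS). It belongs to a family of similar genes, and the sources used here do not say how reads that fit several of them were counted.

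Cytokines of the IL-1 and IL-6 families rose for 12 of 16 tested genes and fell for 2, with a median log2 fold change of 2.56. Il1b, a cytokine made by activated myeloid cells, went from 0.989 and 0.915 to 112, 25.3 and 21.3 CPM (log2 fold change 5.80, SE 0.91, adjusted p = 0.000954), and Il1a from 0.198 and 0.129 to 23.5, 4.67 and 5.51 CPM. Treated library 1 was the highest for both. Il6 had no count in untreated KO and 1.89, 0.385 and 0.61 CPM with DSS, at least 38.6-fold higher, a call that was lost without untreated KO library 3 (adjusted p = 0.056). Il1rl1, the receptor for the alarmin IL-33, rose in all 3 treated libraries, from 0.475 and 0.558 to 7.75, 10.4 and 14.1 CPM (log2 fold change 4.37, SE 0.36, adjusted p = 6.46e-05), and Il33 itself from 3.24 and 3.86 to 41.7, 16.2 and 11.2 CPM, a call that was lost without untreated KO library 2 or 3. The receptor genes Il1r1 and Il11ra1 fell, by 0.93 and 0.84 on the log2 scale, though Il1r1 was not called without untreated KO library 2. The list had 7 higher genes without untreated KO library 3.

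Among other cytokines and CC chemokines, 19 of 23 were higher and 1 was lower, with a median of 3.23. Tnf, the cytokine targeted in the treatment of colitis, rose from 1.42 and 0.772 to 16.5, 19.3 and 50.2 CPM (log2 fold change 4.72, SE 0.61, adjusted p = 0.000369). Ccl2, which attracts monocytes, rose from 0.198 and 0.458 to 3.59, 3.20 and 7.53 CPM, and Cxcl9, which attracts T cells, from 0.85 and 0.658 to 17.4, 16.3 and 31.2 CPM. In all 3 genes treated library 4 was the highest. Ccl3 and Ccl4, which attract monocytes and lymphocytes, rose instead mostly in treated library 1, to 18.4, 2.26 and 1.94 CPM and 36.3, 7.12 and 2.65 CPM from 0.178 and 0.0286 CPM and 0.0791 and 0 CPM. The anti-inflammatory cytokine gene Il10 rose from 0 and 0.172 to 1.19, 0.653 and 0.757 CPM (log2 fold change 3.19, SE 0.78, adjusted p = 0.00882). Il22, a cytokine that acts on the epithelium, had no count before and 0.886, 0.0502 and 1.26 CPM after DSS, at least 29.4-fold higher. The Il22 call was lost without untreated KO library 2 or 3, DSS-treated KO library 1 or 4, or DSS-treated WT library 4. The gene that fell was Ccl11, an eosinophil attractant, and no gene was called lower without untreated KO library 3. Of the list, 12 genes were higher without untreated KO library 2 and 11 without untreated KO library 3.

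Subunits and feedback genes of NF-kB rose for 13 of 17 genes and fell for 1, with a median of 0.76. Genes of the inhibitor family were among the members with the largest rises: Nfkbiz went from 24.9 and 28.01 to 147, 105.4 and 219 CPM (log2 fold change 2.57, SE 0.28, adjusted p = 0.00017) and Nfkbia from 70.5 and 65.9 to 188, 220.4 and 439 CPM (log2 fold change 2.05, SE 0.33, adjusted p = 0.00103), with treated library 4 the highest in both. The subunit genes Rela and Nfkb1 rose by 0.47 and 0.43 on the log2 scale, to 66.8, 71.02 and 74.3 CPM and 81.02, 80.03 and 76.3 CPM, calls that were lost without untreated KO library 3 and with epithelial marker scaling (adjusted p = 0.207 and 0.315). With epithelial marker scaling 10 members were higher and 2 lower.

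Antimicrobial and acute-phase genes of the epithelium were split, with 10 of 19 higher, 3 lower and a median of 1.40, beside 1.27 in WT. Slpi, a secreted inhibitor of neutrophil elastase, rose alike in the 3 treated libraries, from 7.22 and 8.31 to 174, 185 and 175 CPM (log2 fold change 4.52, SE 0.16, adjusted p = 3.48e-06). Retnlb, an antimicrobial protein of goblet cells, rose from 1.27 and 1.99 to 64.3, 125 and 154 CPM (log2 fold change 6.12, SE 0.49, adjusted p = 6.08e-05). Lcn2, the siderophore binder lipocalin-2, rose from 0.573 and 1.42 to 63.5, 12.9 and 6.10 CPM, and Dmbt1, a mucin-like scavenger protein, from 4092 and 3239.9 to 7015, 9787 and 12229 CPM. Lcn2 was highest in treated library 1 and Dmbt1 and Retnlb in treated library 4. The lectin gene Reg4 fell, with Wfdc2 and S100g, from 261 and 299 to 71.4, 52.1 and 62.6 CPM (log2 fold change -2.17, SE 0.19, adjusted p = 7.16e-05). Dmbt1 was at 10186, 6867 and 7939 CPM in DSS-treated and 2193 and 2114 CPM in untreated WT, and the difference of its responses was not called (adjusted p = 0.274). Only 1 member was called lower without untreated KO library 3.

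Enzymes that make oxidants rose in 13 of 15 cases and none was lower, with a median of 1.72; their summed level went from 377 to 426 CPM in untreated KO to 1776 to 2517 CPM with DSS. The hydrogen peroxide source of the colonic epithelium, Duox2, went from 98.6 and 70.6 to 588, 716 and 955 CPM (log2 fold change 3.15, SE 0.27, adjusted p = 6.91e-05), and its maturation factor Duoxa2 from 17.99 and 13.5 to 189, 220.1 and 338 CPM (log2 fold change 3.98, SE 0.34, adjusted p = 6.95e-05). Nox1, a superoxide source of the colonocyte, rose from 13.2 and 16.2 to 51.5, 45.6 and 48.7 CPM, and untreated WT held 35.1 and 55.7 CPM. Nos2, the inducible nitric oxide synthase, was at 1.25 and 0.844 CPM before and 376, 339 and 666 CPM after DSS. Arg1, which competes with it for arginine, rose from 0.356 and 0.272 to 13.3, 3.78 and 2.65 CPM. For Nos2 the treated libraries of WT held 192, 91.3 and 192 CPM, and the response was 4.88 higher in KO on the log2 scale (adjusted p = 0.00143).

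Matrix metalloproteinases and the plasminogen system rose for 13 of 18 genes and fell for 2, with a median of 2.81. The stromelysins Mmp3 and Mmp10 and the collagenase Mmp13 degrade the matrix of wounded tissue. Mmp3 went from 0.87 and 0.443 to 11.7, 8.02 and 9.97 CPM (log2 fold change 3.93, SE 0.41, adjusted p = 0.00014), Mmp10 from 0.158 and 0.329 to 4.11, 2.73 and 5.28 CPM and Mmp13 from 0.91 and 1.36 to 15.9, 9.26 and 18.4 CPM. The treated libraries were close to each other and apart from the untreated ones. Plaur, the receptor of the plasminogen activator urokinase, rose from 4.07 and 3.35 to 48.7, 25.9 and 29.8 CPM (log2 fold change 3.23, SE 0.35, adjusted p = 0.000153). The 2 that fell were the metalloproteinase inhibitors Timp3, from 118 and 130.2 to 25.9, 24.9 and 20.3 CPM (log2 fold change -2.39, SE 0.22, adjusted p = 9.64e-05), and Timp2, from 77.02 and 105.3 to 27.8, 29.4 and 14.3 CPM. Leaving out untreated KO library 2 left 8 members higher.

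The promoters of the 3 metalloproteinase genes are shown for the site of AP-1, a dimer of Fos and Jun proteins, which lies close to the start in each. The windows, from RefSeq on GRCm38.p6 and on the plus strand, are chr9:7445572-7445821 for Mmp3, chr9:7502092-7502341 for Mmp10 and chr9:7272264-7272513 for Mmp13, with the match to TGANTCA in capitals.
Mmp3: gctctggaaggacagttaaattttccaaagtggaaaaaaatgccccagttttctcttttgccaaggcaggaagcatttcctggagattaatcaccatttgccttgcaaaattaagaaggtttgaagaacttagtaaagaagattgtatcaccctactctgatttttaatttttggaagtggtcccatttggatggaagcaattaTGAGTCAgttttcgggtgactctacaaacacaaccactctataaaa
Mmp10: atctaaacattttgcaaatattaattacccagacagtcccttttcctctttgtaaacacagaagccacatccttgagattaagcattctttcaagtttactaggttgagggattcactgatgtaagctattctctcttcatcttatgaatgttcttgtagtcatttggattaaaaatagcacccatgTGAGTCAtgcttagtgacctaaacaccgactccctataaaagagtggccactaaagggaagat
Mmp13: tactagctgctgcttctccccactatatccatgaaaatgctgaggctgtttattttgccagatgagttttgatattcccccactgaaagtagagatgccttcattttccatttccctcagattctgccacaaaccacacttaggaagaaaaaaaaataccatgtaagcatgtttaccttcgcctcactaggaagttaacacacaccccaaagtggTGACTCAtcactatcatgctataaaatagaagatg
The site began 46, 63 and 35 bases before the start. On either strand the motif was found in 6.75% of all windows. Counted by gene, it was found in 7 of the 12 genes of this list with a window. All 7 genes (Mmp3, Mmp7, Mmp10, Mmp12, Mmp13, Plaur and Serpinb2) rose.

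Prostaglandin genes gave 3 higher and 7 lower of 15, beside 23.1% and 22.3% of all genes. Ptgs2, the inducible cyclooxygenase, rose from 3.26 and 3.23 to 59.7, 12.99 and 10.03 CPM (log2 fold change 3.09, SE 0.80, adjusted p = 0.0115), mostly in treated library 1, and its call was lost without untreated KO library 2 or 3 (highest adjusted p = 0.0768). The synthase gene Ptges rose by 1.33 on the log2 scale. Hpgds, which makes prostaglandin D2 in mast and other immune cells, fell from 14.5 and 13.6 to 2.40, 3.23 and 1.89 CPM (log2 fold change -2.48, SE 0.23, adjusted p = 8.34e-05), and the degrading enzyme Hpgd from 193 and 187 to 54.8, 112 and 96.8 CPM (log2 fold change -1.11, SE 0.26, adjusted p = 0.00653). The uptake carrier Slco2a1 fell by 1.29 on the log2 scale. The number of lower members was 4 without untreated KO library 3.

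**Figure D3:**
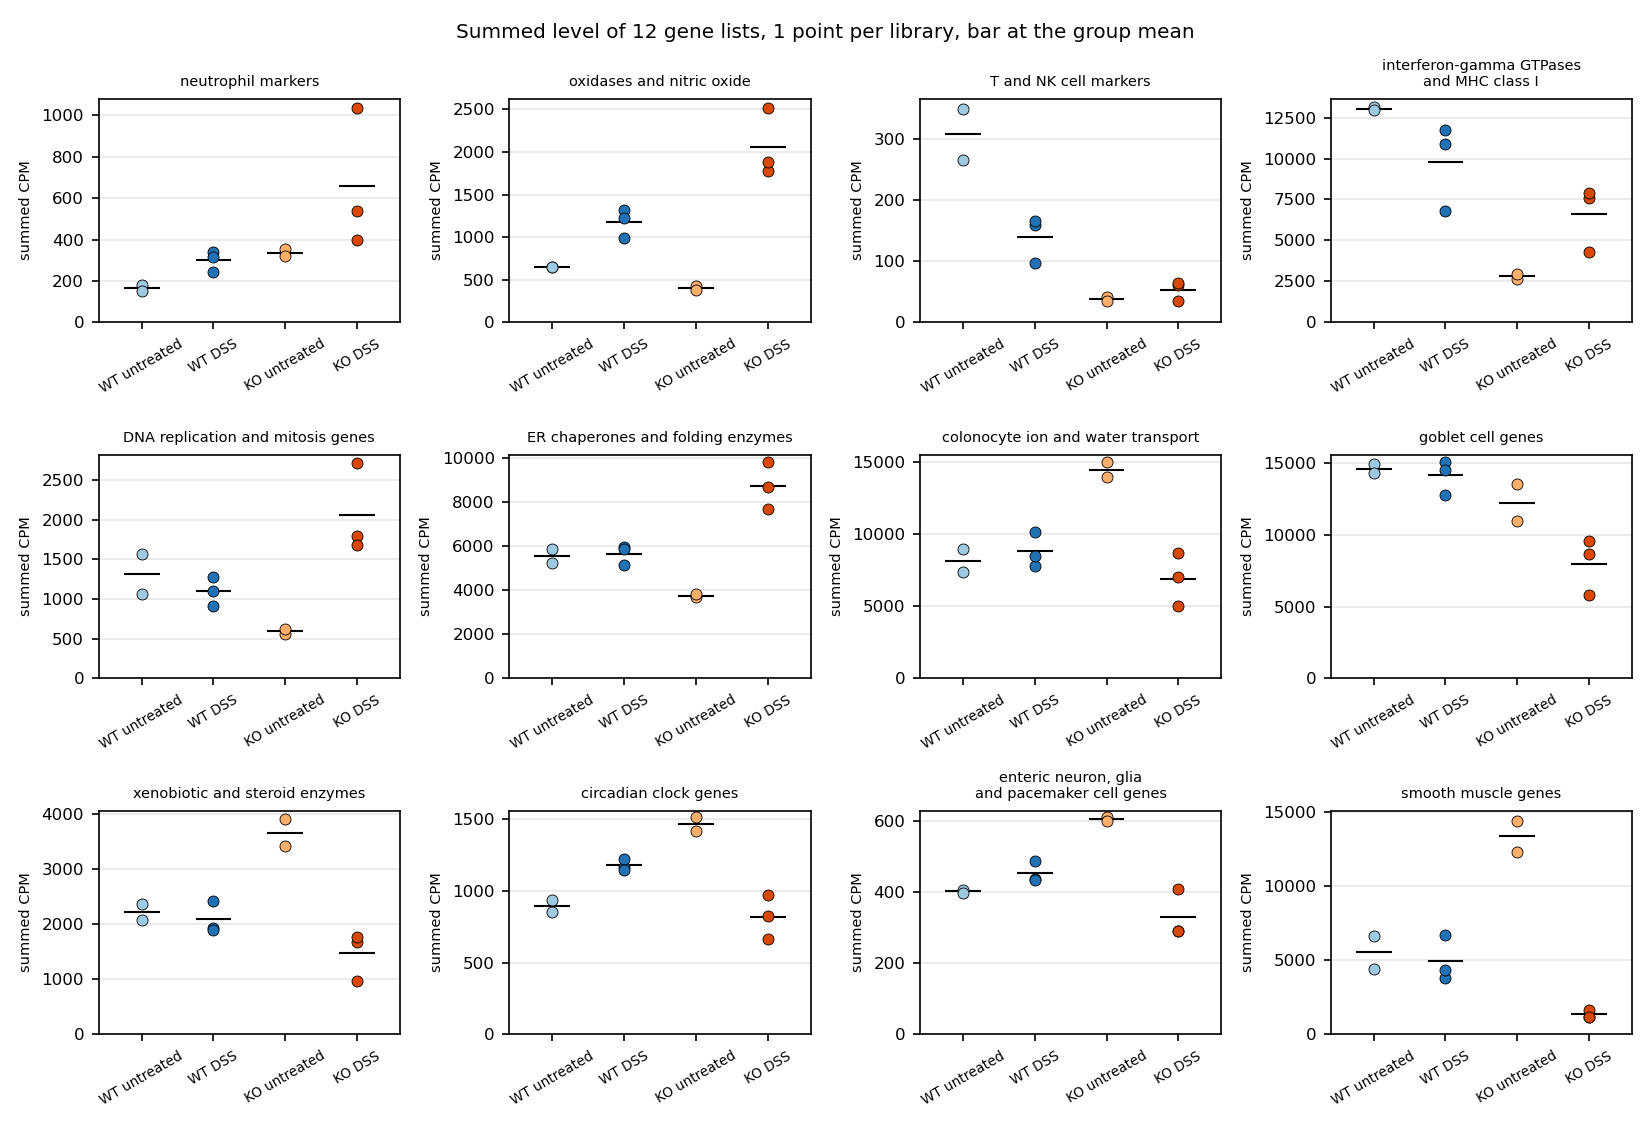
Summed CPM of 12 gene lists in each library (points) with the mean of each group (bar). Smooth muscle genes go from 12301 to 14422 CPM in untreated KO to 1173 to 1673 CPM with DSS, ER chaperones from 3674 to 3839 CPM to 7660 to 9826 CPM, and T and NK cell markers are highest in untreated WT.

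Genes known from monocytes and macrophages rose in part, and in sum DSS-treated KO stayed below untreated WT. The summed level of the list was 219 to 238 CPM in untreated and 448 to 590 CPM in DSS-treated KO. In WT it was 635 to 793 CPM untreated and 402 to 722 CPM with DSS. Of 20 macrophage and monocyte markers, 10 were higher and 0 lower (median 0.93), with 9 responses higher in KO than in WT, but 5 without untreated WT library 2 or untreated KO library 2. Ccr2, the receptor by which monocytes leave the marrow, went from 2.65 and 3.29 to 14.9, 19.3 and 11.6 CPM (log2 fold change 2.36, SE 0.34, adjusted p = 0.000639), Cd14, a co-receptor for bacterial lipopolysaccharide, from 36.2 and 32.04 to 151, 130.2 and 214 CPM, and the scavenger receptor Marco from 0 and 0.114 to 3.15, 3.68 and 1.03 CPM. Adgre1, which encodes the macrophage antigen F4/80, was at 1.52 and 4.41 CPM before and 6.32, 7.25 and 3.72 CPM after DSS (adjusted p = 0.129), was called higher without untreated KO library 3, and overlapped between the groups.

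T and NK cell markers were lower in sum in every KO library than in any WT library. Of 25 tested, 10 were higher with DSS and 1, Thy1, was lower (median 1.07), with 3 higher when untreated KO library 3 was left out and 6 when DSS-treated KO library 2 was, 6 in a fit of the KO libraries alone and 5 with epithelial marker scaling. The cytotoxic granule gene Gzmb rose from 0.593 and 0.458 to 2.16, 2.61 and 2.33 CPM and Foxp3, the factor of regulatory T cells, from 0.0791 and 0.0858 to 1.06, 1.04 and 0.568 CPM (log2 fold change 3.40, SE 0.69, adjusted p = 0.00338). Cd3e, a chain of the T cell receptor complex, was at 1.72 and 0.687 CPM before and 1.90, 2.44 and 1.18 CPM after DSS and was not called (adjusted p = 0.244), except without untreated KO library 2. The summed level of the list was 34.7 to 41.9 CPM in untreated and 35.2 to 64.6 CPM in DSS-treated KO, against 265 to 350.0 CPM in untreated and 96.5 to 165 CPM in DSS-treated WT. The response was called as higher in KO for 19 of the 25, but for 6 without untreated WT library 2 or untreated KO library 3, 12 without untreated WT library 3 and 8 with epithelial marker scaling. The WT log2 fold changes, not called, were -1.24 for Cd3e and -1.41 for Gzmb.

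The B cell and the dendritic cell and MHC class II lists gave few calls, beside 23.1% higher and 22.3% lower of all genes. Of 20 B and plasma cell markers, 2 were higher and 1 lower, with 4 higher without DSS-treated KO library 4 and 0 lower without untreated KO library 2. Of 15 dendritic cell and MHC class II genes, 3 were higher and 0 lower. Leaving out untreated KO library 3 gave 0 higher genes of this list, DSS-treated KO library 1 gave 5, and DSS-treated WT library 2 gave 7, while epithelial marker scaling gave 1. Cd74, the invariant chain, was at 639 and 503 CPM before and 783, 1774 and 903 CPM after DSS (adjusted p = 0.101) and was called without DSS-treated WT library 2. Of 11 mast cell and eosinophil markers 5 rose and 1 fell, and Il5ra, the IL-5 receptor of eosinophils, rose from 0.158 and 0.0429 to 16.4, 4.57 and 6.20 CPM (log2 fold change 6.55, SE 0.90, adjusted p = 0.000493). The gene that fell was Kit, which pacemaker cells of the muscle wall also express.

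Genes of the interferon-gamma GTPase and MHC class I list rose, with counts that rest on the untreated KO libraries, whose omission lowered the calls over all genes too. The list median was 1.37 without untreated KO library 2 and 1.40 without untreated KO library 3. Of 21 interferon-gamma GTPase and MHC class I genes, 14 were higher and 0 lower (median 1.27), with 6 higher without untreated KO library 2 and 4 without untreated KO library 3. The class I heavy chain gene H2-D1 went from 797 and 858 to 1579, 2654 and 2519 CPM (log2 fold change 1.44, SE 0.24, adjusted p = 0.0012) and stayed below the 2989 and 3038 CPM of untreated WT. Class I genes are similar to each other, so the division of reads among them is uncertain. Tap1, the peptide transporter, rose from 43.4 and 42.4 to 92.4, 139 and 196 CPM, a call that was lost without untreated KO library 3, and Nlrc5, which switches on class I genes, from 8.88 and 8.11 to 25.1, 32.5 and 53.7 CPM. The untreated KO libraries were the lowest of the series for all 3 genes. Of 20 interferon-stimulated genes 2 were higher, Ifit2 among them, beside 23.1% of all genes. None was called with epithelial marker scaling, or without untreated WT library 2 or 3, DSS-treated WT library 3, untreated KO library 2, or DSS-treated KO library 2 or 4, and 1 in a fit of the KO libraries alone. Isg15, a ubiquitin-like protein, was at 5.62 and 23.9 CPM before and 13.7, 35.7 and 29.9 CPM after DSS, with the 2 untreated libraries on either side of treated library 1 (adjusted p = 0.317).

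Ion and water transporters of the colonocyte fell for 13 of 24 genes and rose for 3, with a median of -1.02. Slc20a1, a sodium-phosphate carrier, dropped from 1079 and 1022 to 100.1, 165 and 140.1 CPM (log2 fold change -2.96, SE 0.25, adjusted p = 7.16e-05). The carbonic anhydrase gene Car1 fell from 1776 and 1602 to 342, 245 and 208 CPM (log2 fold change -2.67, SE 0.21, adjusted p = 5.81e-05), the chloride-bicarbonate exchanger Slc26a3 from 1338 and 1494 to 195, 414 and 557 CPM, and the water channel Aqp8 from 872 and 918 to 58.7, 227 and 281 CPM. Treated library 1 was the lowest for Slc20a1, Slc26a3 and Aqp8, and no untreated library overlapped the treated ones. The direction was not shared by Aqp4, another water channel, which rose from 59.04 and 113 to 526, 403 and 806 CPM (log2 fold change 2.75, SE 0.36, adjusted p = 0.00039). Car1 was at 263 and 295 CPM in untreated WT, and the DSS-treated KO libraries lay around that level.

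Genes of the mature absorptive cell fell for 8 of 20 and rose for 0, beside 22.3% and 23.1% of all genes. With epithelial marker scaling 12 fell. The membrane mucin Muc3 fell from 6907 and 8451 to 1972, 2913 and 3175 CPM (log2 fold change -1.52, SE 0.22, adjusted p = 0.000621), and Slc37a2, a sugar-phosphate exchanger, from 397 and 283 to 20.1, 95.2 and 86.5 CPM.

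Of 22 goblet cell genes 6 rose and 4 fell, shares near the 23.1% and 22.3% of all genes, with a median of -0.22. Muc2, the gel-forming mucin of the colon, was at 1624 and 1830.0 CPM in untreated KO and 1417, 2029 and 1844 CPM with DSS, and its log2 fold change of 0.03 (adjusted p = 0.895) changed sign with the setting, to -0.21 with epithelial marker scaling. Clca1, a secreted metalloprotease of the mucus, fell from 2661 and 3696 to 218, 511 and 484 CPM (log2 fold change -2.97, SE 0.34, adjusted p = 0.000216), and Klk1, a kallikrein, from 1027 and 1467 to 92.3, 182 and 189 CPM (log2 fold change -3.02, SE 0.29, adjusted p = 0.0001). Both were below every untreated and every WT library, where Clca1 held 1364, 1256 and 1895 CPM with DSS. Agr2, the ER disulfide isomerase needed to fold MUC2, rose from 559 and 558 to 1027, 1154 and 1286 CPM (log2 fold change 1.05, SE 0.16, adjusted p = 0.000749). Fcgbp, a mucus-bound IgG-binding protein, was at 1556 and 1724 CPM before and 967, 1796 and 1422 CPM after DSS and was not called (adjusted p = 0.41), though it was lower with epithelial marker scaling. The goblet cell factor gene Spdef rose by 0.90 on the log2 scale (adjusted p = 0.0009). With epithelial marker scaling 12 of the 22 were lower.

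Tight junction and membrane mucin genes gave 6 higher and 3 lower of 21, beside 23.1% and 22.3% of all genes, and 3 and 6 with epithelial marker scaling. Tjp1, which encodes ZO-1, was at 182 and 157 CPM before and 125, 142 and 187 CPM after DSS and was not called (log2 fold change -0.16, adjusted p = 0.424); it was called lower without DSS-treated KO library 4 and with epithelial marker scaling. Cldn1, another junction protein, was at 1.29 and 1.70 CPM before and 0.595, 0.887 and 0.568 CPM after (log2 fold change -1.13, adjusted p = 0.122), and was called lower without DSS-treated WT library 3 and in a fit of the KO libraries alone. Cldn8, a sealing claudin of the distal colon, rose from 90.2 and 75.5 to 173, 186 and 258 CPM (log2 fold change 1.31, SE 0.17, adjusted p = 0.000398). Leaving out untreated KO library 3 left 2 genes higher, and a fit of the KO libraries alone 3.

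Markers of the rare chemosensory and hormone cells mostly fell. Of 19 enteroendocrine and tuft cell genes 12 fell and 1 rose, with a median of -1.26. Trpm5, the cation channel of tuft cells, fell from 4.33 and 4.33 to 0, 0.419 and 0.358 CPM (log2 fold change -4.10, SE 0.83, adjusted p = 0.00355), and Sh2d6, an adaptor gene of tuft cells, from 4.29 and 3.76 to 0.203, 0.251 and 0 CPM (log2 fold change -4.65, SE 0.69, adjusted p = 0.000714). Scg2, a granin, fell from 25.5 and 28.8 to 5.50, 5.98 and 3.05 CPM and Chga, the general enteroendocrine marker, from 52.2 and 55.4 to 31.1, 32.6 and 30.4 CPM (log2 fold change -0.78, SE 0.08, adjusted p = 0.000155). The groups did not overlap for any of the 4 genes.

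Stem cell and WNT target genes fell for 7 of 18 and rose for 3, beside 22.3% and 23.1% of all genes, with a median of -0.49. Lgr5, the marker of crypt base stem cells, fell from 6.82 and 7.09 to 3.62, 2.60 and 3.05 CPM, a call that was lost without untreated KO library 3. Tnfrsf19, also called Troy, fell from 6.25 and 5.05 to 1.35, 0.971 and 0.484 CPM (log2 fold change -2.58, SE 0.40, adjusted p = 0.000872). Without untreated KO library 3, 4 genes of the list were called lower, and with epithelial marker scaling 1 was called higher. Genes of regenerating epithelium went the other way, with 13 of 24 higher and 3 lower (median 0.89). Ly6a, which encodes the fetal-like marker Sca-1, rose from 356 and 326 to 1536, 2096 and 2683 CPM (log2 fold change 2.63, SE 0.26, adjusted p = 0.000118), and Anxa1, a pro-resolving annexin, from 232 and 204 to 519, 472 and 557 CPM (log2 fold change 1.24, SE 0.15, adjusted p = 0.000291). The calcium-binding S100a11 rose from 94.6 and 86.5 to 608, 435 and 366 CPM (log2 fold change 2.37, SE 0.21, adjusted p = 7.98e-05). Ly6a was at 1859 and 2008 CPM in untreated WT, a level that untreated KO did not reach. Krt19, a keratin of simple epithelium, was at 3391 and 2986 CPM before and 3298, 4459.9 and 4337 CPM after DSS and was not called (adjusted p = 0.121), except without DSS-treated KO library 1, and 7 members were called higher without untreated KO library 3.

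Squamous genes, which belong to stratified epithelia, rose in this columnar tissue. Of 16 tested, 8 rose and 0 fell, with a median of 2.40. Sprr1a, a cornified envelope precursor, went from 1.86 and 2.77 to 30.7, 38.9 and 72.4 CPM (log2 fold change 4.34, SE 0.54, adjusted p = 0.000303) and Krt13, a keratin of stratified mucosa, from 0.119 and 0 to 6.45, 4.92 and 5.70 CPM (log2 fold change 6.71, SE 0.93, adjusted p = 0.000521). Without untreated KO library 3, 5 genes were called higher.

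Cell division rose throughout the list. All 24 tested genes of DNA replication and mitosis were higher with DSS, beside 23.1% of all genes, with a median of 1.75, and for all 24 the response was higher in KO than in WT. That difference was called for 15 genes without untreated KO library 2 or with epithelial marker scaling, and for 16 without untreated WT library 3. Their summed level went from 555 to 627 CPM in untreated KO to 1681 to 2711 CPM with DSS. Rrm2, the small subunit of ribonucleotide reductase, rose from 6.84 and 10.4 to 115, 61.7 and 54.3 CPM (log2 fold change 3.15, SE 0.39, adjusted p = 0.000297), Birc5, the spindle protein survivin, from 14.8 and 14.1 to 124, 95.6 and 82.6 CPM (log2 fold change 2.80, SE 0.24, adjusted p = 6.93e-05), and the proliferation marker Mki67 from 83.9 and 84.2 to 280.2, 191 and 208 CPM (log2 fold change 1.43, SE 0.21, adjusted p = 0.000749). Treated library 1 was the highest for each. Mki67 stood at 160.1 and 230.0 CPM in untreated WT, above untreated KO and within or below the range of DSS-treated KO. In KO itself, 24 genes were higher with epithelial marker scaling and 20 to 24 when single libraries were left out.

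**Figure D4:**
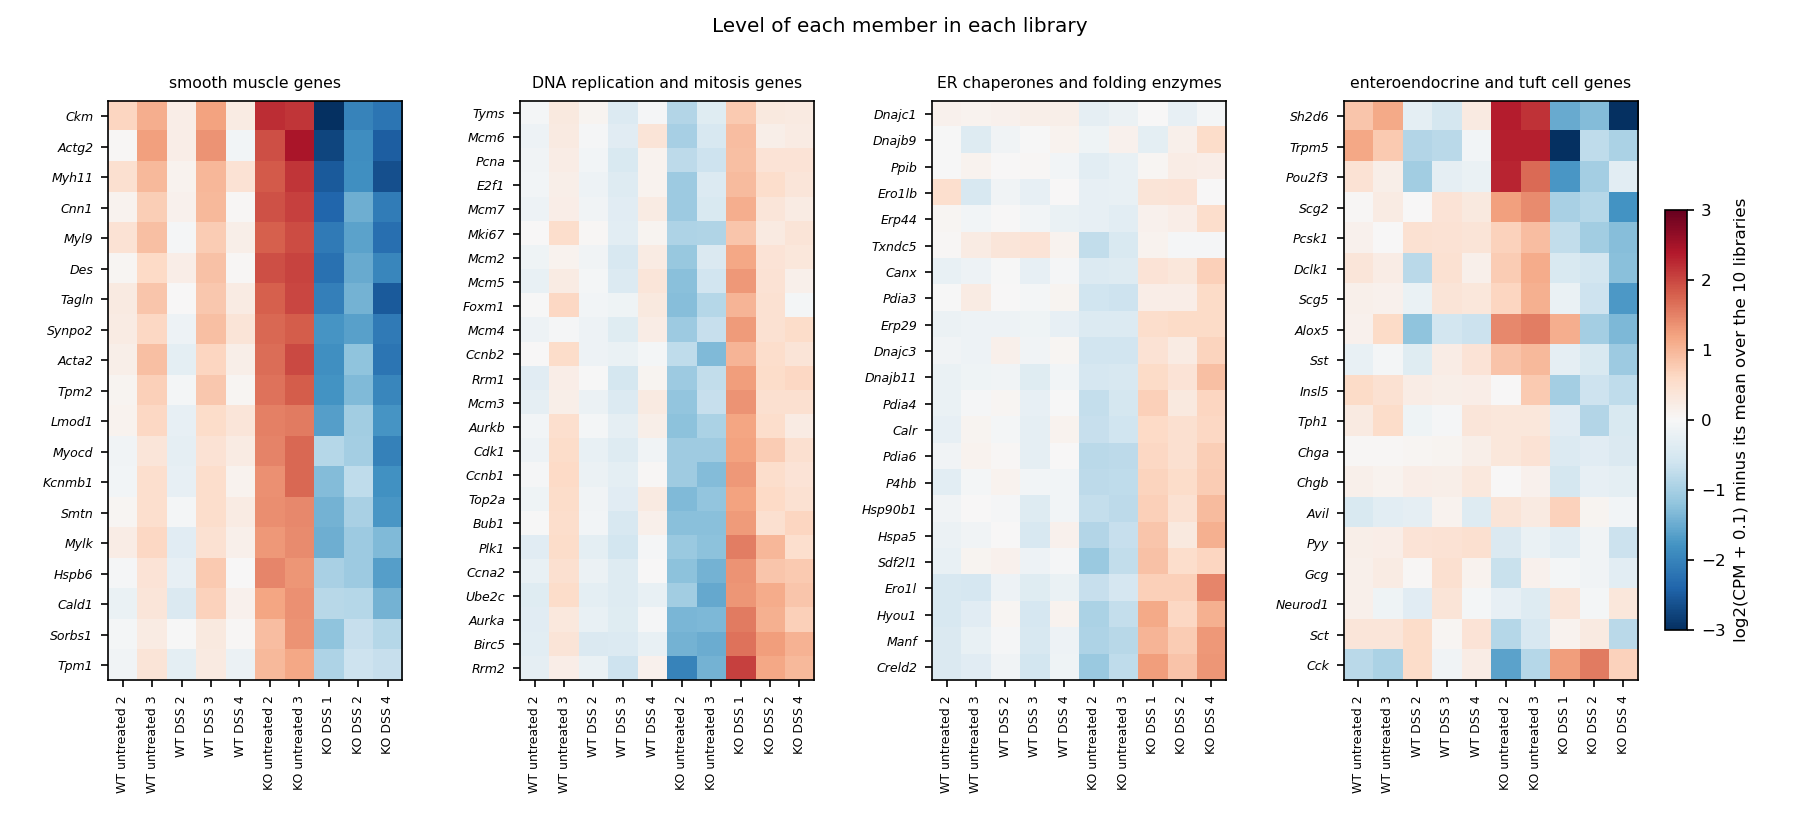
Level of each member of the smooth muscle, mitosis, ER chaperone and enteroendocrine and tuft cell lists in each library, as log2(CPM + 0.1) minus the gene's mean over the 10 libraries. Smooth muscle genes are highest in untreated KO and lowest in DSS-treated KO, and mitosis genes and ER chaperones are mostly higher in DSS-treated than in untreated KO. All 5 WT libraries lie between the KO groups for 19 of 19 smooth muscle genes and 15 of 22 ER chaperones, but for 10 of 24 mitosis and 5 of 19 enteroendocrine and tuft cell genes.

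Chaperones of the ER rose together. Of 22 tested genes, 19 were higher and 0 lower, with a median of 1.16, and 18 responses were higher in KO than in WT. Their summed level was 3674 to 3839 CPM in untreated and 7660 to 9826 CPM in DSS-treated KO, while the WT libraries held 5216 to 5877 CPM untreated and 5122 to 5939 CPM with DSS. Hspa5 (gene ID 14828, chromosome 2, bases 34772090 to 34776529), which encodes BiP, the partner of ERdj5, went from 303 and 344 to 987, 685 and 1162 CPM (log2 fold change 1.55, SE 0.24, adjusted p = 0.000937). Creld2, an ER protein induced by ER stress, rose from 26.5 and 33.8 to 137, 104 and 143 CPM (log2 fold change 2.08, SE 0.19, adjusted p = 9.17e-05), and Manf, a secreted ER stress factor, from 70.8 and 74.9 to 271, 227 and 332 CPM (log2 fold change 1.93, SE 0.19, adjusted p = 0.000112). The disulfide isomerases P4hb and Pdia3 rose from 451 and 456 to 1229, 1139.8 and 1315 CPM and from 530.2 and 523 to 919, 914 and 1182 CPM. Every treated library was above every untreated library for these genes, and treated library 2 was the lowest of the 3. Without untreated KO library 2, 17 genes were higher, as with epithelial marker scaling.

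Promoters of 3 chaperone genes are shown because they carry the full ER stress element, the site through which ATF6 and NF-Y act. The windows of 250 bases, from RefSeq on GRCm38.p6 and on the plus strand, are chr2:34771840-34772089 for Hspa5, chr15:88819396-88819645 for Creld2 and chr12:17266339-17266588 for Pdia6. Capitals mark the match to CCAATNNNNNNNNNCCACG, which in Creld2 reads in the reverse orientation.
Hspa5: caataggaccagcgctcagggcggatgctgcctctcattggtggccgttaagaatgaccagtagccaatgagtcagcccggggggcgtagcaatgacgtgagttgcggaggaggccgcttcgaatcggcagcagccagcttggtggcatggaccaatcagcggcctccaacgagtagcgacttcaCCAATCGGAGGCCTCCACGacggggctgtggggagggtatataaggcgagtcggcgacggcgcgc
Creld2: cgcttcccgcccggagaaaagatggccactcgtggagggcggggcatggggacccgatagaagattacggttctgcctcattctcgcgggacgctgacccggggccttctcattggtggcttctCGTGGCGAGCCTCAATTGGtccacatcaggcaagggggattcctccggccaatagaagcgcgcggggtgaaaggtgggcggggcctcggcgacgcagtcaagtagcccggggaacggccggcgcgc
Pdia6: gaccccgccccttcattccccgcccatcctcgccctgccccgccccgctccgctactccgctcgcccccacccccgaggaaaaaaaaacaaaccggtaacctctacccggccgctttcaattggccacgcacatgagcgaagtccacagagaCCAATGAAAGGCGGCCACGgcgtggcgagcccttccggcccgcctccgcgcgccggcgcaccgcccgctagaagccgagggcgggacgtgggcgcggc
The match began 65, 126 and 98 bases before the start. Searched on both strands, the element was present in 0.113% of all windows. Counted by gene, it was present in 7 of 17 chaperone list genes with a window (Calr, Canx, Creld2, Dnajc3, Hsp90b1, Hspa5 and Pdia6). All 7 were higher with DSS. In the degradation and translocation list it was present in 2 of 22 such genes (Derl3 and Syvn1, of which Syvn1 rose). None of the printed matches overlapped one of the other motifs.

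Genes that move proteins into and out of the ER rose for 20 of 25 and fell for 0, with a median of 0.76. Sec61b, a subunit of the translocation channel, went from 71.1 and 71.01 to 189, 235 and 254 CPM (log2 fold change 1.67, SE 0.15, adjusted p = 8.34e-05), and Vcp, the ATPase that pulls misfolded proteins out of the membrane, from 256 and 271 to 534, 462 and 519 CPM (log2 fold change 0.94, SE 0.14, adjusted p = 0.000652). Sel1l and Syvn1, which form the ubiquitin ligase complex of ER-associated degradation, rose by 0.59 and 0.81 on the log2 scale. The groups did not overlap for these 4 genes. Of the list, 13 responses were higher in KO than in WT, or 7 with epithelial marker scaling.

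Among sensors of the unfolded protein response and targets of ATF4 and CHOP, 12 of 22 were higher and 2 lower, with a median of 0.66. Atf4 rose from 143 and 143 to 225, 210.1 and 275 CPM (log2 fold change 0.73, SE 0.13, adjusted p = 0.00187) and Xbp1 from 198 and 195 to 339, 309 and 531 CPM (log2 fold change 1.00, SE 0.21, adjusted p = 0.0044). Genes of amino acid synthesis were among those that rose: Psat1, of serine synthesis, went from 5.08 and 5.28 to 70.3, 41.3 and 32.01 CPM (log2 fold change 3.21, SE 0.32, adjusted p = 0.000126) and Asns, asparagine synthetase, from 18.1 and 17.02 to 86.2, 62.97 and 67.9 CPM (log2 fold change 2.04, SE 0.21, adjusted p = 0.000133). Chac1, which degrades glutathione, rose from 0.593 and 0.601 to 4.24, 3.85 and 5.68 CPM. Ddit3, which encodes CHOP, fell, from 14.9 and 13.3 to 8.81, 11.2 and 10.7 CPM (log2 fold change -0.46, SE 0.16, adjusted p = 0.0387), and lost its call without DSS-treated WT library 4, untreated KO library 2 or 3 or DSS-treated KO library 1, in a fit of the KO libraries alone and with no filter on low counts. Ern2, the goblet cell form of the sensor IRE1, fell from 46.7 and 51.7 to 26.2, 25.8 and 23.2 CPM (log2 fold change -0.97, SE 0.12, adjusted p = 0.000319). Of the sensors, Eif2ak3, which encodes PERK, rose by 0.56 on the log2 scale, a call that was lost without untreated KO library 2 (adjusted p = 0.0711), in a fit of the KO libraries alone and with epithelial marker scaling (adjusted p = 0.0837).

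Other genes tied to protein handling fell. Sec31b, of the COPII vesicle coat, fell from 3.18 and 3.55 to 0.595, 0.854 and 0.715 CPM (log2 fold change -2.22, SE 0.32, adjusted p = 0.000656). The small heat shock protein gene Cryab fell from 28.1 and 33.8 to 5.40, 7.68 and 3.09 CPM (log2 fold change -2.52, SE 0.34, adjusted p = 0.00045), and the translocation gene Tram1l1 from 0.751 and 1.09 to 0.261, 0.234 and 0.273 CPM (log2 fold change -1.84, SE 0.39, adjusted p = 0.00412). All untreated KO libraries were above all treated ones. Cryab, Hspb6 and Hspb7 are abundant in muscle, whose markers fell in the same libraries from 12301 to 14422 CPM to 1173 to 1673 CPM in sum. The part of muscle content in these falls was not tested.

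The list of cytosolic heat shock chaperones was split, with 10 of 18 higher and 7 lower. The 7 that fell were the small heat shock genes Hspb1, Hspb6, Hspb7, Hspb8 and Cryab and the inducible Hspa1a and Hspa1b, whose near-identical sequences make the division of reads between the last 2 uncertain. Hspb7 dropped from 79.4 and 64.8 to 10.05, 6.09 and 5.15 CPM (log2 fold change -3.34, SE 0.25, adjusted p = 5.22e-05). Hspd1, a mitochondrial chaperonin that the list also holds, rose from 169.8 and 167 to 668, 397 and 499 CPM (log2 fold change 1.63, SE 0.24, adjusted p = 0.000751), and Hsp90ab1 from 789 and 746 to 1902, 1417 and 1499 CPM.

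Cell death effectors rose for 10 of 24 genes and fell for 2, with 5 higher without untreated KO library 3, 6 without DSS-treated KO library 4, and 5 with epithelial marker scaling. Over all genes the shares were 23.1% higher and 22.3% lower. Ripk3, the kinase of necroptosis, rose from 23.8 and 22.5 to 122, 109 and 154 CPM (log2 fold change 2.47, SE 0.22, adjusted p = 7.50e-05), and its substrate Mlkl from 17.6 and 19.01 to 46.2, 50.4 and 59.8 CPM (log2 fold change 1.51, SE 0.22, adjusted p = 0.0007). Bak1, the pore-former of apoptosis, rose from 116 and 100.5 to 206, 243 and 232 CPM (log2 fold change 1.07, SE 0.14, adjusted p = 0.000325). The gasdermin genes Gsdmc2 and Gsdmc4 fell, by 1.27 and 1.34 on the log2 scale, calls that were lost without untreated KO library 2 or DSS-treated KO library 2 and in a fit of the KO libraries alone. They are near-identical copies, so the division of reads between them is uncertain.

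Detoxifying enzymes fell for 16 of 27 genes and rose for 2, with a median of -1.52. Abcb1a, the drug efflux pump P-glycoprotein, dropped from 549 and 634 to 27.8, 61.96 and 57.4 CPM (log2 fold change -3.59, SE 0.29, adjusted p = 6.08e-05), and Cyp2d12, of a P450 subfamily with similar copies, from 117 and 100.04 to 2.90, 9.19 and 6.79 CPM (log2 fold change -4.11, SE 0.40, adjusted p = 0.00011). The conjugating enzyme Gstm1 fell from 179 and 191 to 67.3, 60.2 and 65.9 CPM (log2 fold change -1.52, SE 0.12, adjusted p = 6.46e-05). The treated libraries lay below all WT libraries for these 3 genes, and 11 responses of the list were lower in KO than in WT, or 7 without untreated WT library 2 or untreated KO library 3. The 2 that rose were the glutathione transferases Gsta1 and Gsta4, and without untreated KO library 2 or 3 no gene of the list was called higher.

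Genes of sugar breakdown rose. Of 22 glycolysis and hypoxia genes 15 rose and 0 fell (median 0.71). Pfkfb3, which sets the level of the activator of phosphofructokinase, rose from 7.12 and 8.51 to 71.3, 47.5 and 139 CPM (log2 fold change 3.45, SE 0.47, adjusted p = 0.000459), Pgk1 from 398 and 375 to 948, 1107 and 1197 CPM (log2 fold change 1.49, SE 0.15, adjusted p = 0.000136) and the pyruvate kinase gene Pkm from 1398 and 1284 to 1898, 2286 and 2147 CPM (log2 fold change 0.65, SE 0.13, adjusted p = 0.00324). Of 23 genes of fatty acid oxidation and ketogenesis 6 fell and 1 rose, beside 22.3% of all genes lower, and 13 fell with epithelial marker scaling. The rise was not called without untreated KO library 2 or 3, and 3 genes were called higher without DSS-treated KO library 1. Of 26 nuclear genes of oxidative phosphorylation 13 rose and 0 fell (median 0.43), with 5 higher when untreated KO library 2 or 3 was left out 21 when DSS-treated KO library 1 was, and 6 in a fit of the KO libraries alone.

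Metal handling gave 7 higher and 1 lower of 17, beside 23.1% and 22.3% of all genes. The transferrin receptor gene Tfrc rose from 169 and 266 to 798, 887 and 956 CPM (log2 fold change 2.02, SE 0.22, adjusted p = 0.000178), and the metalloreductase Steap4 from 3.40 and 3.46 to 24.6, 38.6 and 78.01 CPM (log2 fold change 3.78, SE 0.50, adjusted p = 0.000408). The metallothionein gene Mt2 rose by 1.69 on the log2 scale, and the gene that fell was Slc30a10. Leaving out untreated KO library 2 left 4 members higher, as did epithelial marker scaling, and 3 were lower without DSS-treated KO library 1.

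Circadian clock genes mostly fell in KO. Of 18, 11 fell and 3 rose, with a median of -1.07, and the response differed from WT for 15, lower in KO for 11 and higher for 4. Dbp, a clock-controlled transcription factor, dropped from 119 and 122 to 3.33, 8.59 and 5.91 CPM (log2 fold change -4.35, SE 0.32, adjusted p = 5.22e-05), and Nr1d1, the repressor REV-ERB-alpha, from 248 and 235 to 24.5, 62.4 and 59.8 CPM (log2 fold change -2.30, SE 0.34, adjusted p = 0.000732). Nfil3, which binds the same sites as Dbp, rose from 0.969 and 2.00 to 11.2, 6.88 and 11.8 CPM (log2 fold change 2.74, SE 0.39, adjusted p = 0.000559). Dbp was at 41.5 and 35.9 CPM in untreated and 48.7, 69.5 and 51.8 CPM in DSS-treated WT, between the KO groups in all 5 libraries. Arntl, which encodes the clock activator BMAL1, was not called in KO, at 25.1 and 26.6 CPM before and 25.1, 24.4 and 27.05 CPM after DSS (adjusted p = 0.894), and was the 1 gene called lower with DSS in WT, from 25.8 and 26.5 to 11.04, 11.1 and 11.2 CPM (adjusted p = 0.00463).

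Smooth muscle genes had the lowest median of the 47 lists. All 19 tested genes were lower with DSS, beside 22.3% of all genes, with a median of -3.39, and all 19 responses were lower in KO than in WT. Their summed level fell from 12301 to 14422 CPM in untreated KO to 1173 to 1673 CPM with DSS. Myh11 (gene ID 17880, chromosome 16, bases 14194527 to 14292188), the smooth muscle myosin heavy chain, went from 1651 and 2039 to 80.1, 129 and 74.4 CPM (log2 fold change -4.29, SE 0.32, adjusted p = 5.22e-05), the enteric actin Actg2 from 965 and 1378 to 37.8, 69.8 and 45.3 CPM (log2 fold change -4.52, SE 0.50, adjusted p = 0.000178), and the actin-binding Tagln from 1649 and 1889 to 114, 178 and 82.2 CPM (log2 fold change -3.83, SE 0.34, adjusted p = 7.98e-05). The treated libraries were alike and never overlapped the untreated ones. In WT the summed level was 4417 to 6658 CPM untreated and 3799 to 6721 CPM with DSS, and for all 19 genes the 5 WT libraries lay between the KO groups. The 19 genes were lower in each of the 18 alternative settings run, epithelial marker scaling and the omission of each library included.

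Markers of the nerve and pacemaker cells that lie within the muscle layers also fell. Of 20 enteric neuron, glia and pacemaker genes 17 fell and 1 rose, with a median of -1.82, and 17 responses were lower in KO than in WT. That difference was called for 10 genes without untreated WT library 3, 11 without untreated WT library 2 and 12 without untreated KO library 3. S100b, of enteric glia, fell from 2.43 and 3.30 to 0.363, 0.251 and 0.252 CPM (log2 fold change -3.29, SE 0.30, adjusted p = 8.80e-05), Nos1, of inhibitory motor neurons, from 26.3 and 29.9 to 7.99, 6.11 and 3.83 CPM (log2 fold change -2.23, SE 0.28, adjusted p = 0.000295), and Kit, of interstitial cells of Cajal, from 34.6 and 35.5 to 13.4, 13.9 and 14.4 CPM (log2 fold change -1.34, SE 0.09, adjusted p = 3.51e-05). The exception was Tac1, the precursor of substance P, which rose from 17.8 and 20.9 to 99.4, 62.3 and 216 CPM (log2 fold change 2.70, SE 0.51, adjusted p = 0.0024). The smooth muscle sums given above moved with these genes, and the part of muscle wall content in the neuronal change was not tested.

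Fibroblast and matrix genes fell for 11 of 24 and rose for 1, with a median of -1.04, and 5 fell without untreated KO library 3. No gene was called higher without untreated KO library 2 or 3 or DSS-treated KO library 1. The adhesion protein gene Fn1 fell from 337 and 452 to 91.1, 90.9 and 55.3 CPM (log2 fold change -2.32, SE 0.43, adjusted p = 0.00228) and Postn, the matrix protein periostin, from 194 and 269 to 54.2, 63.6 and 43.7 CPM (log2 fold change -2.10, SE 0.36, adjusted p = 0.00136). The interstitial collagen gene Col3a1 was at 218 and 405 CPM before and 119.6, 169 and 99.8 CPM after DSS and was not called (adjusted p = 0.0851), but was called lower without DSS-treated WT library 2 or 3 and in a fit of the KO libraries alone. Of 17 endothelial and lymphatic markers 6 fell and 0 rose, beside 22.3% and 23.1% of all genes, and 3 fell without DSS-treated KO library 4.

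Genes best known from adipose tissue, blood, skeletal muscle and pancreas were lower in part. Of 12 adipose genes 5 fell and 0 rose, and 1 fell without untreated KO library 3. Of 9 blood and skeletal muscle genes 8 fell, and 4 without untreated KO library 3; Hbb-bs, a beta globin gene with a similar copy, was at 6.47 and 11.7 CPM before and 3.86, 2.33 and 2.08 CPM after DSS, a call that was lost without untreated KO library 3. Of 3 tested pancreas genes 2, Cela1 and Sycn, fell. Sycn, a zymogen granule protein, fell from 723 and 684 to 18.9, 60.3 and 56.7 CPM (log2 fold change -3.96, SE 0.51, adjusted p = 0.000345).

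**Figure D5:**
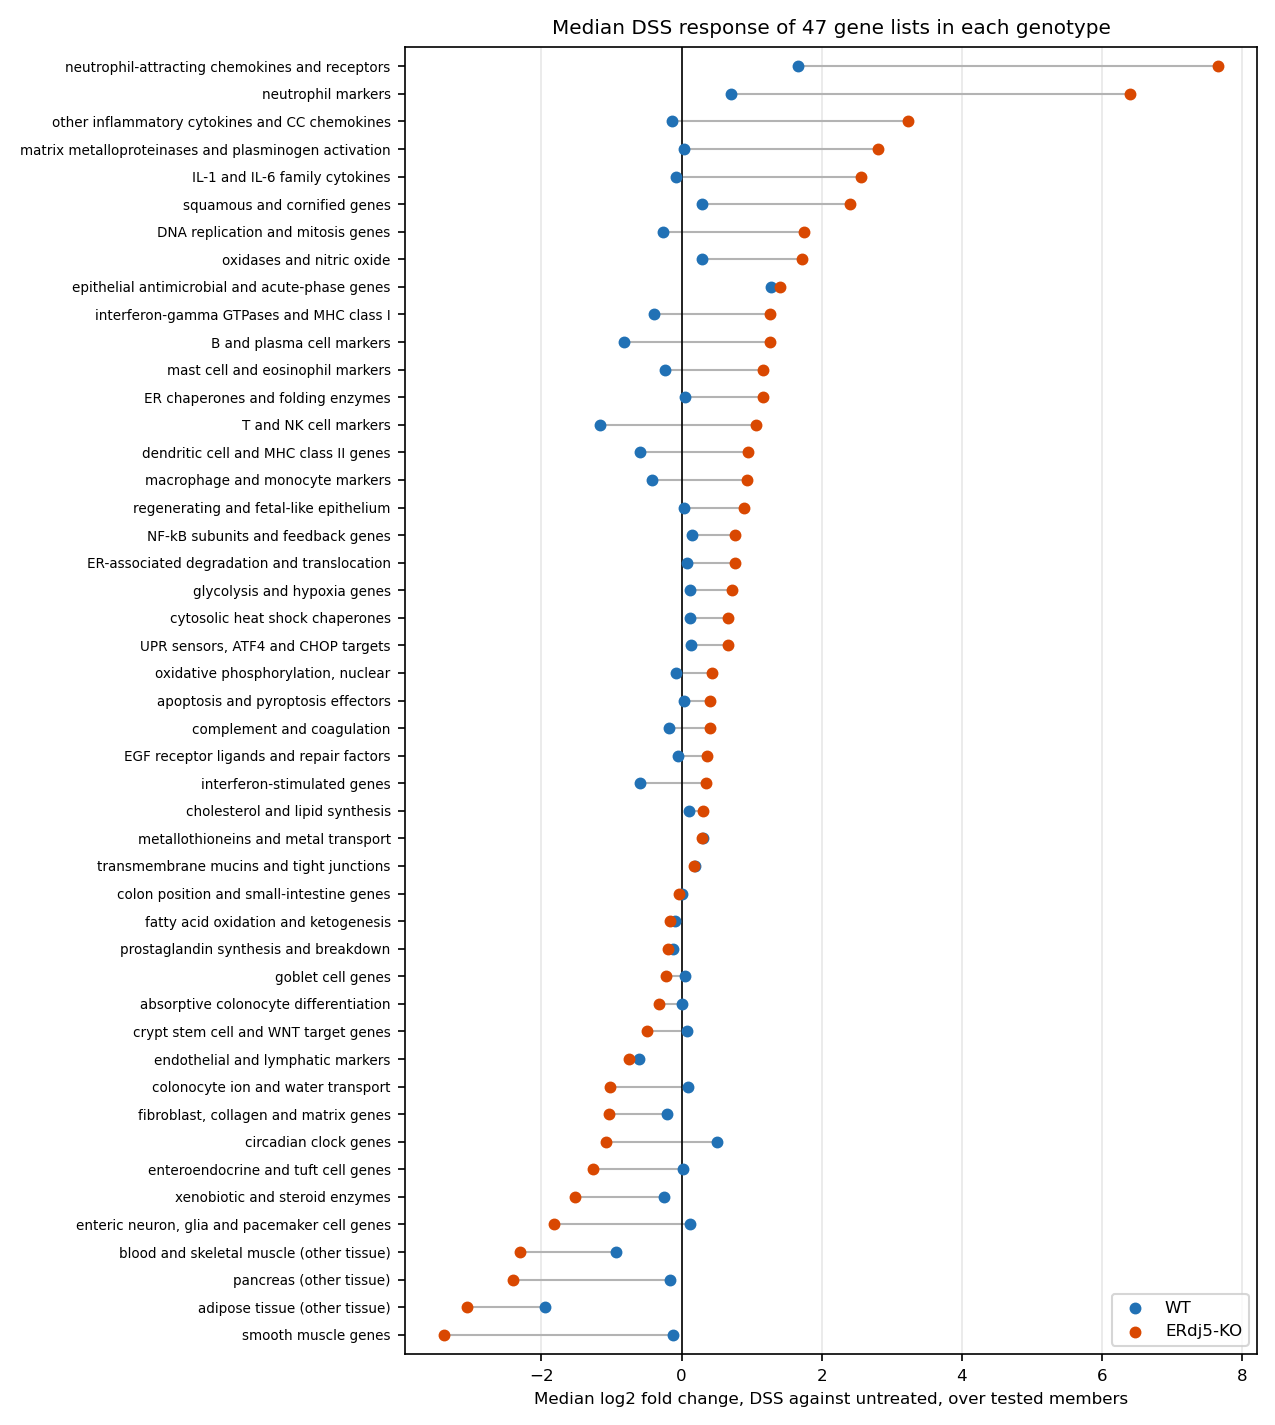
Median log2 fold change of DSS-treated against untreated colon over the tested members of 47 gene lists, in KO and in WT. KO medians run from -3.39 for smooth muscle to 7.66 for neutrophil-attracting chemokines, and the WT median of the antimicrobial list is 1.27.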

How the data were processed

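Colon RNA of untreated and DSS-treated ERdj5-KO and WT mice was sequenced from stranded mRNA libraries. The authors deposited a table of raw read counts per gene and library, not normalised. According to processing notes of the submitters, reads were mapped to mm10, with Bowtie2 2.3.4.1 and HISAT2 2.1.0 among the tools, beside StringTie 2.1.3b and Trimmomatic 0.38. The sources used here do not say how multi-mapping reads and strand were counted. Of the same table, 30 per-library columns of other units and 12 columns of the authors' group means, fold changes and p-values were not used.

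Libraries were mapped to groups by column name. Counts of all 10 libraries were fitted with edgeR 4.0.16 (quasi-likelihood, TMM factors, filterByExpr) in R 4.3.3 with limma 3.58.1. CPM were computed with the same TMM factors. Contrasts were DSS against untreated in KO, the same in WT, and their difference, at a Benjamini-Hochberg adjusted p under 0.05. The pipeline was tested on simulated data. Alternatives were DESeq2 1.42.0, RLE factors, other count filters, a fit of the KO libraries alone, a threshold of p under 0.01 with a fold over 3, and leaving out each library. Scaling to 6 epithelial markers and a threshold of at least 2-fold were added after seeing the data.

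Members and lists were chosen with earlier results of these data known. The 47 lists hold 906 genes, of which 885 were matched and 859 tested. Named genes were the 12 largest rises and the 12 largest falls whose mean log2 CPM reached 1 or more, with no overlap between the KO groups, without predicted genes and immunoglobulin or T cell receptor segments, the 6 highest and 6 lowest differences of responses, 23 of the genes the study names, and list members that changed most, were most abundant or define the list. Further list members were chosen after their values were seen. A few genes that the rule selects are not reported here. Gene positions for 29251 gene IDs and promoter windows were taken from RefSeq, GRCm38.p6.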

Additional observations from a re-analysis of the deposited data

Results flagged for a closer look

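These results were picked out because the DSS response differed between KO and WT by the test of the difference itself (edgeR quasi-likelihood, Benjamini-Hochberg adjusted p under 0.05). Groups held 2 or 3 libraries, too few for a test of single outlying samples. The response was higher in KO for 2830 genes and lower for 2652. Values below are log2 responses in KO minus those in WT.

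Among genes known from inflammation, the difference was 10.46 for Cxcl2, 9.62 for Ccl4, 9.29 for Il6, 7.72 for Chil3, 7.41 for Ccl3 and 7.40 for Clec4e. It was 6.37 for Saa3, 5.65 for Cxcl1, 5.44 for Il1b, 4.88 for Nos2, 3.68 for Arg1 and 3.33 for Il10. Cxcl2, Il6 and Spink6 had no count in untreated KO, so their fitted differences depend on the model's prior count and are no bound. Chil3 was under the floor of 3 counts there, and its difference is imprecise. Of epithelial or secreted products, the difference was 8.92 for Spink6, 4.64 for Lrg1 and 4.50 for Plet1, and of ER stress genes 1.504 for Hspa5 and 0.95 for Atf4.

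The response was lower in KO by these log2 differences among epithelial and secreted products: -7.17 for Cyp2c55, -6.17 for Krt17, -5.90 for Klk15, -5.29 for Slc30a10, -4.24 for Mptx1 and -2.45 for Clca1. For genes known from muscle, nerve or matrix the difference was -5.28 for Dpp10, -5.11 for Col8a2, -5.06 for Angptl7, -4.62 for Optc, -4.55 for Ckm, -4.26 for Tacr2 and -2.41 for Cryab. It was -3.46 for Pdzd7 and -2.42 for Sec31b.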

How the results depend on the processing

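DESeq2 called 4991 genes higher and 4884 lower in KO, and 114 and 59 in WT. At an unadjusted p under 0.01 with a fold over 3, 818 and 2023 genes were called in KO, 52 and 34 in WT, and 822 and 1463 for the difference of the responses. Scaling to epithelial markers gave 2452 higher in KO, 11 higher in WT and 831 and 4153 for the difference. Asking for a fold of at least 2 left 1758 genes higher in KO and 1461 with a higher response in KO. Leaving out single libraries gave 2822 to 4746 higher and 2801 to 4602 lower genes in KO, 0 to 5 and 0 to 4 in WT, and 1477 to 2978 and 1347 to 3026 for the difference. The sign turned, without a call, for 3 genes: Muc2 was at -0.0017 with at least 10 counts in every library, -0.025 in a fit of the KO libraries alone, -0.21 with epithelial marker scaling and -0.082 to 0.13 without single libraries. Ly6g was at -0.14 with epithelial marker scaling and -0.023 to 0.21 without single libraries, and Arntl at -0.061 to 0.025. The causes were not tested. Over 171 named genes, 2928 recomputed values kept direction and side of the threshold, 95 lost the call and 13 gained it. No paired analysis was possible because the columns of the KO groups share 1 number, and column numbers differ from those of the sample titles. With 2 untreated KO libraries, several list counts rest on either of them, and genes near the floor of 3 counts have imprecise fold changes.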

Other observations

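Of 16 tested EGF receptor ligands and repair factors, 6 were higher and 4 lower with DSS in the KO colon, beside 23.1% and 22.3% of all genes, with a median log2 fold change of 0.36. Nrg1, a ligand of the ERBB receptors, rose from 2.63 and 2.09 to 9.42, 8.25 and 6.16 CPM (log2 fold change 1.75, SE 0.37, adjusted p = 0.00417), and Met, the receptor of hepatocyte growth factor, from 61.2 and 59.1 to 89.4, 93.1 and 123 CPM (log2 fold change 0.76, SE 0.14, adjusted p = 0.00243). Fgf10, a growth factor of the mesenchyme, fell from 4.05 and 7.65 to 1.68, 1.10 and 0.778 CPM (log2 fold change -2.29, SE 0.46, adjusted p = 0.00335). The groups did not overlap for these 3 genes.

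Of 17 complement and coagulation genes 4 rose and 1 fell, beside 23.1% and 22.3% of all genes, with 2 higher and 2 lower without untreated KO library 2. Coagulation factor F10 rose from 0.0791 and 0.157 to 9.53, 3.63 and 2.86 CPM (log2 fold change 5.43, SE 0.77, adjusted p = 0.000567). Of 21 genes of cholesterol and lipid synthesis 8 rose and 2 fell, with 5 higher without untreated KO library 2 and 2 without untreated KO library 3, and 0 lower without untreated KO library 2. Of 13 genes that mark position along the gut, 3 rose and 2, Hoxd10 and Hoxa13, fell, shares at or under those of all genes. For that list, 1 gene rose without untreated KO library 2 or DSS-treated KO library 2, and 0 fell without untreated KO library 2.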
